A study of Gallus gallus with 4 samples.

Results

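The glutathione and oxidative stress genes described here are GPX7, GPX8, GSTT1, GSTA4, GSTZ1, GSTO1, GLRX, OSGIN1, MT2A and SEPN1, 10 of the 936 genes that could be given a symbol, each measured by 1 of the 42034 gene probes on the arrays. They were selected from the study's lists of genes that differed between the same cells on the same arrays, so their differences are given as a description, without a test. DF-1 is an immortal, non-transformed line that arose spontaneously from embryos of the endogenous-virus-negative Line 0. The line was set against primary chicken embryo fibroblasts (primary CEF), prepared from whole 10-day-old specific-pathogen-free embryos. The primary CEF were used at low passage and DF-1 at a far higher one. Both were grown in the same serum-supplemented medium, and neither received an agent or carried an introduced allele. DF-1 is a single line, the primary CEF came from other embryos than its founders, and a culture made from whole embryos can hold several cell types. Immortality, genetic origin and culture history therefore cannot be told apart. On each of 4 arrays DF-1 cRNA carried the Cy5 dye and primary CEF cRNA the Cy3 dye, and the value of a probe is the log2 ratio of DF-1 over primary CEF. Above 0 the signal was higher in DF-1. No array had the dyes exchanged, so a dye effect on a probe and a difference between the cells cannot be told apart. The values of array 4 carry a further doubt: the readable part of the study's oligo list holds array 4 values that differ from the deposited ones by amounts that vary between probes, whereas for arrays 1 to 3 the offset is nearly constant. The deposited values are used throughout, and for the 10 genes means without array 4 are given where they differ most. For other genes such a mean is given only where the call changed.

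Glutathione is the main small thiol of animal cells. Glutathione S-transferases attach it to reactive compounds, glutathione peroxidases and glutaredoxins use thiol chemistry to reduce peroxides and mixed disulfides, and metallothioneins bind zinc, copper and cadmium through many cysteines. In cultured fibroblasts these systems handle peroxides and aldehydes made by metabolism and by growth in air.

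In DF-1, 8 of the 10 genes were lower and 2 were higher. The glutaredoxin GLRX was lowest, at 20.7-fold lower, and OSGIN1, an oxidative stress induced growth inhibitor, was highest, at 12.4-fold higher. Of the 4 transferases, GSTT1, GSTA4 and GSTZ1 were lower while GSTO1 was 6.80-fold higher. Both glutathione peroxidases, the metallothionein MT2A and the selenoprotein SEPN1 were lower, by 2.47-fold to 3.90-fold. A probe counted as called when its unadjusted limma p was under 0.05 and its mean log2 ratio lay beyond 1 in either direction, and all 10 genes met this rule. Among all gene probes 12.2% were called, 6.12% as higher and 6.06% as lower. This near-even split held for the deposited ratios at the 2-fold threshold. On the same ratios 37.4% of the called probes were higher at a 3-fold threshold and 68.8% with no fold threshold. With the median of every array set to 0, 1749 gene probes were called higher and 3262 lower. Among the 958 probes that could be given a symbol 85.0% were called, because nearly all symbols came from the study's own tables of changed genes. The choice of the members used this contrast, so nothing is read from their count.

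The arrays carried oligonucleotide probes of 60 bases. A readable probe sequence was at hand for 8 of the 10 genes, not for GSTO1 and OSGIN1. The SEPN1 probe is shown whole. For the lowest gene, the 3 lower transferases and the most variable gene the last 30 bases are shown, 5′ to 3′. The probes were not aligned to transcripts, so their positions in them are not given. Capitals mark AATAAA, the usual polyadenylation signal.
SEPN1: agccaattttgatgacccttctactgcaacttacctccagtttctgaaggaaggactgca
GLRX: acatctcttcctactttctgtggtactgaa
GSTT1: atcctctgttgatattatacatggaatact
GSTA4: tgctgggaagaaagacatcaaaacccgaaa
GSTZ1: tccagcaacagtcttgcagaattAATAAAg
MT2A: gtaccttccataccgatgaaggaAATAAAt
AATAAA, searched on the printed strand alone, stood in the GSTZ1 and MT2A probes and in none of the other 6, against 7.73% of the 1773 readable probes. No member's probe shared a run longer than 12 bases with another readable probe. The GSTT1, GSTA4 and GSTZ1 probes are therefore sequences separate from each other. Unreadable probes, among them that of GSTO1, and transcripts of related transferases were not compared. Whether a probe also bound such transcripts is not known.

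GSTT1 is a theta-class transferase. Its log2 ratios were -2.96, -2.34, -3.29 and -2.89 on arrays 1 to 4, with a mean of -2.87 ± 0.40 (SD, n = 4 arrays), or 7.31-fold lower in DF-1. All arrays placed it well below 0, with array 2 the least negative. GSTA4 is an alpha-class transferase which in mammals acts on 4-hydroxynonenal, an aldehyde of lipid peroxidation. It read -2.12, -2.02, -1.99 and -2.10, a mean of -2.06 ± 0.07 (SD, n = 4) and 4.17-fold lower. The arrays hardly differed for this probe, which the study's oligo list names GSTA3, a synonym of GSTA4 in RefSeq. GSTZ1, the zeta-class enzyme that isomerizes maleylacetoacetate in tyrosine breakdown, read -1.44, -1.43, -1.48 and -1.54. Its mean of -1.47 ± 0.05 (SD, n = 4) is 2.77-fold lower, and its SD was the smallest of the 10 genes, larger than that of only 0.726% of all gene probes.

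GSTO1, an omega-class transferase that in mammals also reduces dehydroascorbate, went the other way. Its log2 ratios were 3.19, 2.58, 2.97 and 2.32, with a mean of 2.77 ± 0.39 (SD, n = 4), and the deposited linear ratios were 9.15, 5.99, 7.83 and 4.99. All 4 arrays put it between 4.99-fold and 9.15-fold higher in DF-1, with arrays 1 and 3 above arrays 2 and 4. Without array 4 the mean was 2.91. RefSeq now lists GSTO1 as a synonym of the chicken gene GSTO2. Within an array the gap between GSTO1 and GSTT1 was 6.15, 4.92, 6.26 and 5.21 on the log2 scale, 5.63 ± 0.67 on average (SD, n = 4). GSTO1 lay above GSTA4 by 4.82 ± 0.40 and above GSTZ1 by 4.24 ± 0.36. These are differences between ratios of DF-1 over primary CEF, not between levels of the genes, which ratios do not give.

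**Figure D1:**
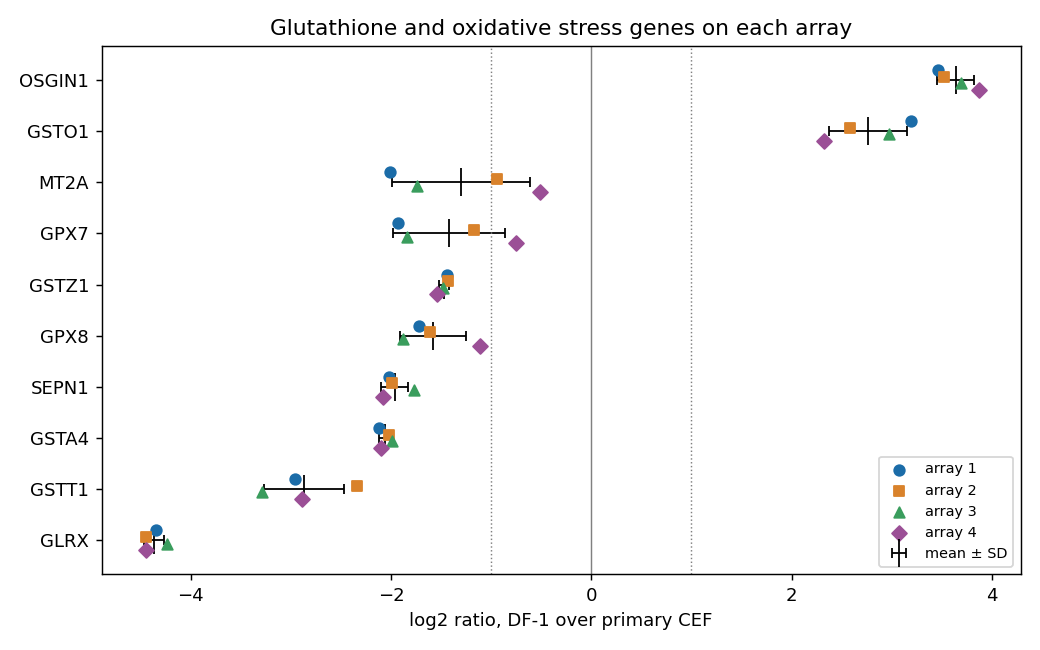
Log2 ratio of DF-1 over primary CEF (x axis) of each of the 10 genes (rows) on each of 4 arrays (symbols), with the mean and SD (black) and dotted lines at a 2-fold difference. No gene has arrays on both sides of 0, and only GPX7 and MT2A have arrays inside the dotted lines.

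GPX7 and GPX8 are glutathione peroxidase family members of the endoplasmic reticulum, which in mammals carry cysteine in place of selenocysteine and pass peroxide oxidation on to protein disulfides. GPX8 read -1.72, -1.61, -1.88 and -1.11, a mean of -1.58 ± 0.33 (SD, n = 4) and 2.99-fold lower in DF-1. GPX7 read -1.93, -1.18, -1.84 and -0.76, a mean of -1.43 ± 0.56 (SD, n = 4) and 2.69-fold lower. Both were below 0 on all arrays, and array 4, whose values are in doubt, was the least negative for each. Without it GPX8 averaged -1.73 and GPX7 -1.65. GPX7 was beyond 2-fold on 3 arrays and GPX8 on 4. GPX7 minus GPX8 was -0.21, 0.43, 0.04 and 0.36 on the arrays, 0.15 ± 0.30 on average, so the order of GPX7 and GPX8 was not settled by the arrays.

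GLRX encodes a glutaredoxin, which removes glutathione from protein thiols. Its log2 ratios were -4.34, -4.45, -4.24 and -4.45, a mean of -4.37 ± 0.10 (SD, n = 4), and the linear ratios were 0.0493, 0.0459, 0.0530 and 0.0457. On every array its DF-1 signal was thus far below the primary CEF signal, and the probe ranked 145th from the lowest of the 42034 gene probes. SEPN1, now SELENON, is a selenoprotein of the endoplasmic reticulum linked in humans to muscle disease and calcium handling. It read -2.02, -1.99, -1.77 and -2.08, a mean of -1.96 ± 0.13 (SD, n = 4) and 3.90-fold lower. Array 3 was the least negative, and all arrays lay beyond 2-fold.

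OSGIN1 is a stress-induced growth inhibitor that in mammals is a target of the transcription factor NFE2L2 (NRF2). Its log2 ratios were 3.47, 3.52, 3.69 and 3.87, a mean of 3.64 ± 0.18 (SD, n = 4), with linear ratios of 11.0, 11.5, 12.9 and 14.6. The probe ranked 53rd from the highest among all gene probes, and GSTO1 ranked 152nd. OSGIN1 stood above GSTO1 on all 4 arrays, by 0.87 ± 0.53, and above GLRX by 8.01 ± 0.22.

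MT2A, a metallothionein now listed in RefSeq as a synonym of MT4, had the widest spread of the 10 genes. It read -2.01, -0.94, -1.74 and -0.52, a mean of -1.30 ± 0.69 (SD, n = 4) and 2.47-fold lower in DF-1. Arrays 1 and 3 lay beyond a 3-fold decrease and arrays 2 and 4 within a 2-fold one, so the size of its decrease depended on the array. Without array 4 it averaged -1.56. Its SD exceeded that of 95.9% of gene probes and that of GPX7 exceeded 90.4%.

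**Figure D2:**
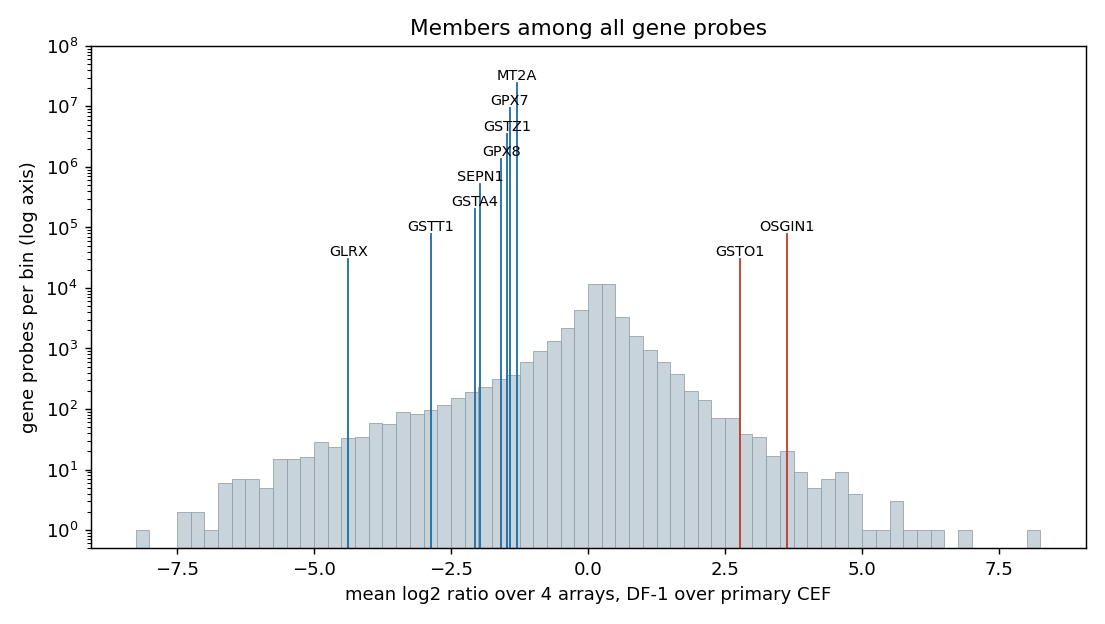
Number of gene probes (y axis, log scale) by mean log2 ratio of DF-1 over primary CEF (x axis, bins over 4 arrays), with lines at the 10 genes, blue where lower in DF-1 and red where higher. The 8 lower genes lie between -4.37 and -1.30, and OSGIN1 and GSTO1 lie at 3.64 and 2.77, on the right flank.

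The median of the 10 means was -1.52, against 0.22 over all gene probes. The members were chosen as changed genes, so the distance between these medians is not read as a result. From the lowest up, GLRX, GSTT1 and GSTA4 had array values that did not overlap, and the smaller step, between GSTT1 and GSTA4, was 0.81. From GSTA4 through SEPN1, GPX8, GSTZ1 and GPX7 to MT2A each gene overlapped its neighbor, with steps of 0.05 to 0.39, and the order of GSTZ1 and GPX7 held on only 2 of 4 arrays. Between MT2A and GSTO1 lay a gap of 4.07. The SD had a median of 0.26 over the 10 genes and 0.30 over all gene probes, and 5 genes (GLRX, GSTA4, SEPN1, GSTZ1 and OSGIN1) had an SD under 0.2.

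The arrays differed in their overall setting. The median log2 ratio over gene probes was -0.04, 0.20, 0.21 and 0.47 on arrays 1 to 4, and that of the 153 negative control spots was 0.02, 0.17, 0.38 and 0.53. With the median of every array set to 0 the means of all 10 genes moved down by 0.21, and none changed sign or call. The shift changed the spread unevenly. The SD of OSGIN1 became 0.08, whereas those of GLRX, GSTA4, SEPN1 and GSTZ1 became 0.27, 0.21, 0.27 and 0.25. The close match of those 4 genes across arrays therefore held for the deposited ratios and not after the shift.

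The deviations of probes from their own means were shared by arrays 1 and 3 and ran opposite to arrays 2 and 4. Across the 42034 gene probes these deviations, after the shift, correlated at 0.27 between arrays 1 and 3 and at 0.08 between arrays 2 and 4, and at -0.66 to -0.46 between the other pairs. These coefficients are across probes of the same arrays and carry no p, and deviations from a common mean tend below 0 by construction. The mean of arrays 2 and 4 minus that of arrays 1 and 3 was 0.90 for MT2A, 0.67 for GPX7 and -0.88 for GSTO1. The median size of this difference over all gene probes was 0.23, and those of MT2A, GPX7 and GSTO1 exceeded 95.7%, 90.5% and 95.5% of them. For these 3 genes the weaker change stood on arrays 2 and 4, where both the decrease of MT2A and GPX7 and the increase of GSTO1 were smaller. The other members had smaller differences, from -0.41 for GLRX to 0.26 for GSTT1. In size these exceeded 74.7% and 56.0% of gene probes, and that of OSGIN1, -0.13, exceeded 30.9%. What sets the array pairs apart is not given in the sources used here, and its part in these genes was not tested.

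**Figure D3:**
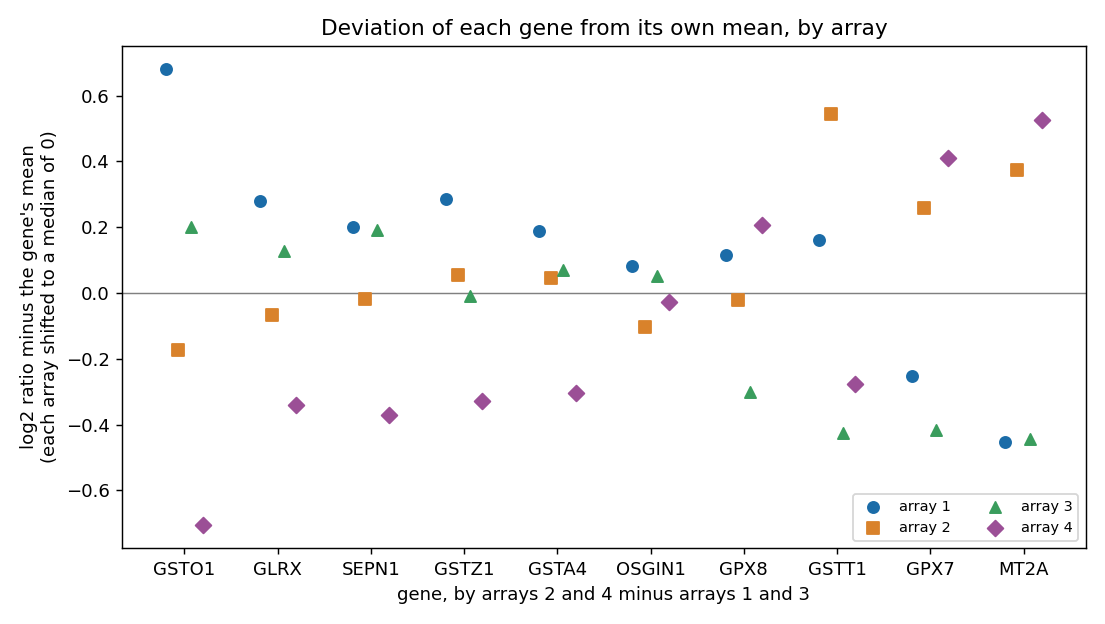
Deviation of each gene's log2 ratio from its own mean (y axis, array medians set to 0) on arrays 1 to 4 (symbols), genes ordered by arrays 2 and 4 minus arrays 1 and 3. GSTO1 at the left (-0.88) and GPX7 (0.67) and MT2A (0.90) at the right have the widest separation of the array pairs.

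Beyond the 10 members, 212 other redox genes were listed by pathway, and 24 of them had a probe with a symbol. Of these 14 were called lower in DF-1, 6 higher and 4 not, against the 85.0% called among all probes with a symbol. All 24 took their symbol from the study's tables on these arrays, so their number is no independent evidence of a direction. The 4 not called here, LAP3, GLRX5, AOX1 and NOS2, are thus also in its tables of changed genes. Their median mean log2 ratio was -1.14, and no listed glutathione peroxidase or transferase outside the members had a symbol.

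Among genes of glutathione supply, ME1, the malic enzyme that makes cytosolic NADPH, averaged -4.18 ± 0.26 (SD, n = 4 here and below). ANPEP, an aminopeptidase that splits the cysteinylglycine released from glutathione, averaged -4.07 ± 0.15, and LAP3, another peptidase of that dipeptide, averaged -0.72 ± 0.47 and was not called. LAP3 lay between -1.003 and -0.900 on arrays 1 to 3 and read -0.02 on array 4, whose values are in doubt. The study itself lists LAP3 among its differentially expressed genes, as lower in DF-1. ME1 and ANPEP thus fell about as far as GLRX. Of the other glutaredoxin genes, GLRX5, of mitochondrial iron-sulfur assembly, averaged -0.84 ± 0.11 and was not called (-1.05 and called lower with array medians set to 0), and the glutaredoxin-like FLJ44606 was higher at 1.57 ± 0.10.

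Of the enzymes that make or remove superoxide and peroxide, SOD3, the extracellular superoxide dismutase, read -3.88, -3.93, -3.86 and -4.16, a mean of -3.96 ± 0.14. PXDN, a peroxidase that crosslinks collagen IV, averaged -1.30 ± 0.33, and SMOX, a polyamine oxidase that releases peroxide, averaged -1.03 ± 0.35. UCP3, a mitochondrial carrier, was higher at 2.16 ± 0.32. AOX1 at -0.95 ± 0.24 and NOS2 at -0.67 ± 0.84 were not called. AOX1 was called lower at -1.17 with array medians set to 0, and NOS2, which read 0.53 on array 4, was called lower at -1.07 without that array. SMOX at -0.88 was not called without array 2. SMOX and AOX1 stood just beyond and just short of the 2-fold threshold.

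The selenoprotein and thioredoxin genes went both ways. SEPN1 fell, and so did the deiodinases DIO2 at -3.66 ± 0.34 and DIO3 at -2.25 ± 0.27, which activate and inactivate thyroid hormone. The methionine sulfoxide reductase SEPX1 was higher on both of its probes, at 1.86 ± 0.17 and 2.01 ± 0.20, and the mitochondrial thioredoxin reductase TXNRD2 was higher at 1.25 ± 0.15. The disulfide isomerase PDIA4 was lower at -1.23 ± 0.17.

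Near MT2A in function, MTF1, the metal-responsive factor that drives metallothionein genes, read -1.37, -0.71, -1.27 and -0.87, a mean of -1.06 ± 0.32. It was not called without array 1 (-0.95) or array 3 (-0.98). The deposited values were less negative on arrays 2 and 4, but with array medians set to 0 array 4 at -1.34 was not above array 1 at -1.33. ALAS1, the first enzyme of heme synthesis, averaged -1.25 ± 0.08. Near OSGIN1, the NFE2L2 partner MAFK was higher at 1.62 ± 0.15, whereas the aldose reductase AKR1B1 was lower at -3.44 ± 0.39. Of the aldehyde and epoxide enzymes, AKR1D1, a steroid reductase, averaged -4.14 ± 0.28, the aldehyde dehydrogenase ALDH2 -2.05 ± 0.26 and the epoxide hydrolase EPHX2 -1.22 ± 0.18. ALDH4A1, of proline breakdown, was higher at 2.01 ± 0.50. It read 1.81, 1.89 and 1.59 on arrays 1 to 3 and 2.74 on array 4, whose values are in doubt.

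**Figure D4:**
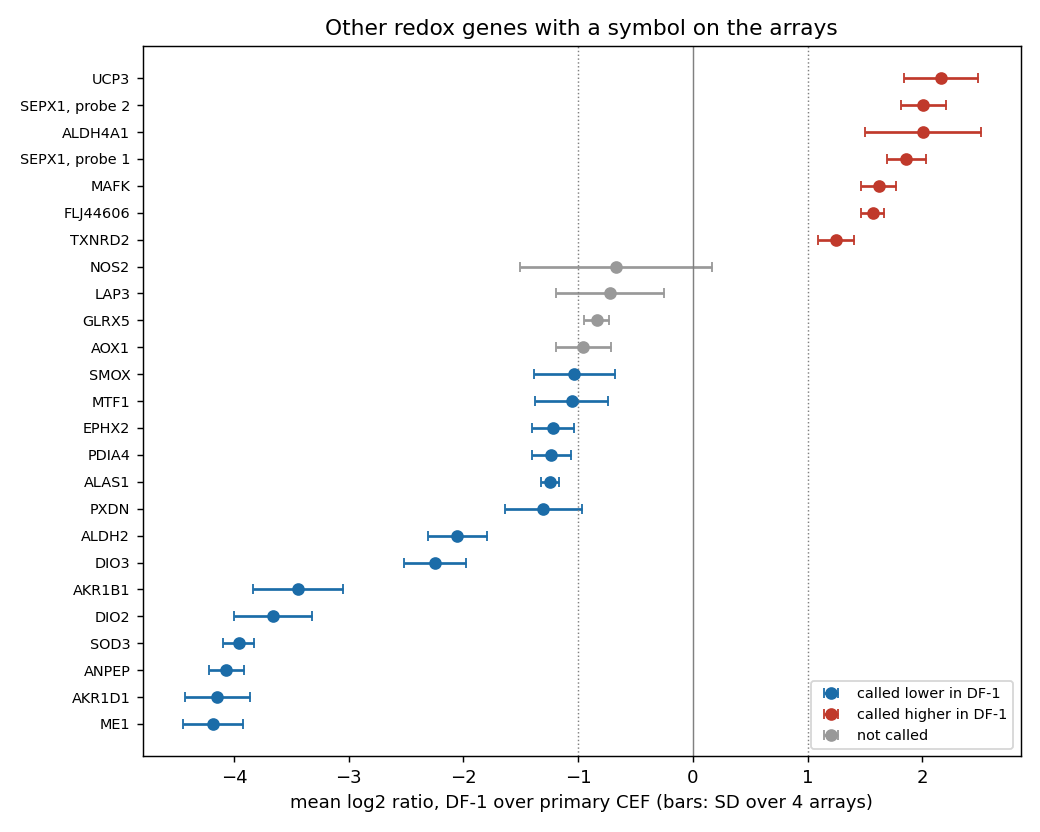
Mean log2 ratio of DF-1 over primary CEF (x axis, bars SD over 4 arrays) of the other listed redox genes with a symbol (rows, SEPX1 with 2 probes), blue where called lower, red where called higher, gray where not called. ME1 at -4.18 and UCP3 at 2.16 are the ends.

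Cell type markers were listed as well. Ratios do not show whether either culture expressed a marker, so the cells' identity could not be checked. Of 14 fibroblast markers 6 had a symbol, and these 6 were called lower in DF-1, from -5.71 for FBLN1 to -1.55 for P4HA1, with a median of -2.66, where FN1 is the mean of its 3 probes (-2.64, -2.48 and -1.32). All marker symbols came from the study's tables of changed genes, so a marker that did not change was unlikely to be seen, and 85.0% of all probes with a symbol were called. Of the markers of other cell types, which brought the lists to 71 genes, 6 had a symbol. CLDN5 of endothelium (-2.98), MYOD1 of muscle (-1.22), SOX10 and MAP2 of neural cells (both -1.82) and SOX9 of cartilage (-1.95) were lower in DF-1, and CD3E of T cells was higher at 1.77. The part of cell makeup in the redox values was not tested. Fewer cells of a type and less RNA per cell cannot be told apart in such cultures.

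The named genes whose ratios lay nearest over the 4 arrays, by root mean square difference among the 958 probes with a symbol, were found for the lowest and the most variable member. For GLRX they were PENK (0.0523), NINJ2 (0.152) and FAM20A (0.222). For MT2A they were SUV420H1 (0.0761), ARHGAP28 (0.0826) and NFIL3 (0.0859). That these share its split between arrays 1 and 3 and arrays 2 and 4 follows from how they were picked.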

How the data were processed

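RNA of DF-1 and primary CEF was compared on 4 two-channel Agilent chicken arrays. The authors scanned the arrays and report background correction and loess normalization of the intensities. They deposited a linear ratio per spot and a table of log2 ratios. The medians of these log2 ratios over gene probes were not all near 0, at -0.04 on array 1 and 0.47 on array 4. The log2 of the deposited ratio matched the log2 table to within 5.00e-05. The deposited mean and SD columns, of linear ratios, were not used. Intensities were not used here, so signal over background is unknown and dim probes could not be removed. The labels and the study's methods give the arrays as biological replicates and the design text mentions a single sample of each cell line, so SDs and p-values may measure repetition of the assay alone.

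Of 45220 spots, 42034 gene probes were kept. A mean was fitted per probe with limma 3.58.1 (R 4.3.3) on the deposited log2 ratios and tested against 0, 2-sided. Calls used the thresholds of the study's methods: p under 0.05 without adjustment, with the mean beyond 1 on the log2 scale in either direction. They are not the study's own calls: 5119 gene probes were called here, more than the study reports. The log ratios that the study gives for members also differ somewhat from the means here. The fit was tested on simulated data. The files pair probes with accessions and no symbols: 909 probes were named from the study's tables and 49 by RefSeq accession (GRCg7b assembly). Tables used Python 3.11.15, numpy 2.4.6 and pandas 2.3.3, and figures matplotlib 3.10.9.

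The members and gene lists were chosen with earlier results of these data known. All 10 members, every listed redox gene with a symbol, and the 3 nearest named genes of the highest, the lowest and the most variable member were to be named, and those of the highest member are not reported here. Alternatives were Benjamini-Hochberg adjustment, 3 array-level shifts, a robust variance, limma's treat, other fold thresholds and leaving out each array. For the member means the median over arrays was a further one.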

Additional observations from a re-analysis of the deposited data

Results flagged for a closer look

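Among the 10 members no array stood apart from the other 3 by Dixon's test, in which a value is set against the range of its group. The test looks for 1 array apart from the other 3. It could not flag a split of arrays 1 and 3 from arrays 2 and 4, as in MT2A, GPX7 and GSTO1. Of the 35 probes of 34 redox genes tested on the deposited ratios, 4 passed the limit, and chance flags about 5% of groups. GLRX5 read -0.67 on array 2, LAP3 read -0.0151 on array 4, ALAS1 read -1.36 on array 4 and AOX1 read -1.31 on array 1. The other 3 arrays lay close together for each of these genes, so a gap that is small in itself, as for ALAS1 and GLRX5, can pass the limit. The test was not repeated with array medians set to 0. With them set to 0, GLRX5 read -0.85, -0.88, -1.10 and -1.37 on arrays 1 to 4, and AOX1 read -1.27, -1.03, -1.06 and -1.30. The flagged arrays, 2 and 1, then no longer stood apart. LAP3 read -0.92, -1.20, -1.11 and -0.49, and ALAS1 read -1.16, -1.41, -1.42 and -1.83. For these, array 4 stayed at 1 end and the other 3 arrays lay less close together.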

How the results depend on the processing

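All 10 members stayed called, 2 higher and 8 lower, with Benjamini-Hochberg adjustment, under the 3 array-level shifts, with a robust variance, with no fold threshold and without each array in turn. With limma's treat, which tests against a 2-fold change, 9 were called and MT2A was lost. At a 3-fold threshold 6 were called, and GPX8, GSTZ1, GPX7 and MT2A were lost. The members came from the study's list of genes changed on these arrays, so their staying called was largely fixed in advance. These counts are no separate evidence. Of 80 member means under alternatives 65 lay within 1 SD of the main value, 15 moved by more, all under the array-level shifts, and 0 changed sign. Leaving out 1 array, or taking the median over arrays, cannot move a mean of 4 arrays by more than 1 SD. The 15 were those of GLRX, GSTA4, SEPN1, GSTZ1 and OSGIN1, the genes with the smallest SDs, under each of the 3 shifts. The count of 65 is therefore no evidence of stability. Without 1 array MT2A ranged over -1.56 to -1.07, GPX7 over -1.65 to -1.26 and GSTO1 over 2.62 to 2.91. The other redox genes called numbered 20 with the main settings, 22 with arrays shifted to a median of 0 and 19 to 21 without 1 array. AOX1 and GLRX5 were gained by the shift and NOS2 without array 4, while MTF1 was lost without array 1 or 3 and SMOX without array 2. Of all 42034 gene probes 5119 were called, 3311 with treat, 2348 at 3-fold, 18052 with no fold threshold and 5122 to 5339 without 1 array. The share of higher calls was 50.2%, against 34.9% after the median shift, 30.2% after the shift to negative controls and 35.3% after shift and scaling. Without a shift it was 37.4% at 3-fold and 68.8% with no fold threshold. A mean over several probes and a filter on dim probes gave no value, since each member has 1 probe and the files hold ratios alone. No paired analysis was possible because each array already sets both cell types side by side and the arrays form 1 group.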
